A study of Mus musculus with 5 samples.

Results

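Heat shock proteins and molecular chaperones were examined as a set of 65 genes among the 15154 genes of the table, or 180 of its 50356 isoforms. Members were chosen by gene symbol alone: the Hsp and Hspa to Hspe genes, the J-domain genes Dnaja, Dnajb and Dnajc, the subunits of the CCT chaperonin, the Bag cochaperones and the heat shock factors Hsf. Hspb1 and Hspg2 were left out by name, so every count and share of Hspb genes is without Hspb1. Cultured dorsal root ganglion (DRG) neurons, the sensory neurons of the peripheral nervous system, were compared with cultured cerebellar granule neurons (CGNs), a neuron type of the central nervous system. Both came from C57bl/6j mice at postnatal day 8 and were grown on poly-d-lysine and laminin. The 3 DRG libraries were made from ganglia of 2 mice each after 16 days in vitro, in medium with nerve growth factor and the antimitotic FuDR, and the 2 CGN libraries from 1 mouse each after 16 hours in vitro. Poly-A RNA was sequenced in both. Cell type and time in culture changed together and cannot be told apart, and each p-value is set against the spread of these 5 cultures only. Values belong to whole cultures, so fewer cells of a type and less RNA per cell cannot be told apart either.

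Chaperones bind unfolded or partly folded proteins and help them reach, keep or regain their shape. Hsp70 proteins bind short stretches of exposed chain in cycles of ATP hydrolysis, J-domain proteins (Hsp40) bring clients and stimulate that hydrolysis, and Hsp110 and Bag proteins release the nucleotide. Hsp90 acts later, on kinases, receptors and other clients. CCT folds actin and tubulin in a closed chamber, Hsp60 folds proteins in mitochondria, and small heat shock proteins hold unfolding clients without ATP. In the cytosol the genes are induced by heat shock factors, which bind heat shock elements. Chaperones of the endoplasmic reticulum (ER) are induced by the unfolded protein response through the ER stress element. Long axons place high demands on such systems, and mutations in several small heat shock proteins and J-domain proteins cause neuropathies in humans.

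These elements were searched for in RefSeq promoter windows (GRCm38.p6, from 250 bases before to 50 after each start site), which 51 of the 65 genes matched, with 71 windows. The ER stress element, CCAAT and CCACG with 9 bases between them on either strand, was in 3 of the 71 windows and in 0.119% of all 32851 windows. It was held by Hspa5, Hsp90b1 and Dnajc3a, all of which encode ER chaperones. The heat shock element of 3 units, GAA, TTC and GAA with 2 bases between neighbours on either strand, was in 5 of the 71 windows, from the genes Hspd1, Dnajb6 and Hsp110, and in 0.603% of all windows. The shorter GAANNTTC, which reads the same on both strands and lies within the longer element, was in 12 windows, from 10 genes, and in 7.86% of all windows. The lines show the matches of the ER genes, a 3-unit match from each gene holding one and a shorter match from each of the 3 genes with the largest differences among those holding one, each 5′ to 3′ on the gene's strand, with its GRCm38.p6 position and the matched letters in capitals. Hspd1 held a second 3-unit match at -144 and Dnaja4 a second shorter match at -52, which are not printed. The 3 genes printed for the shorter match were all higher in DRG cultures. Hspb3 and Hspb6, which were lower, held shorter matches at -224 and -120 that are not printed. A match is a description of these letters, not of binding.
Hspa5 (chr2:34772020-34772048, match at -65 from the start site): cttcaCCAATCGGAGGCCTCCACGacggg
Hsp90b1 (chr10:86705633-86705661, match at -212): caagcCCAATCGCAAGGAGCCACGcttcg
Hsp90b1 (chr10:86705528-86705556, match at -107, other strand): gagtgCGTGGTGAGGCACGATTGGtgagt
Dnajc3a (chr14:118937822-118937850, match at -105): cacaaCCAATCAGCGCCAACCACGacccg
Hspd1 (chr1:55088051-55088079, match at -139): gccttccgGAAGGTTCTAGAAcggaccgt
Dnajb6 (chr5:29735844-29735872, match at -46): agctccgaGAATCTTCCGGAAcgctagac
Hsp110 (chr5:149636280-149636308, match at 15, other strand): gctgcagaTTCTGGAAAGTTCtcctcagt
Dnaja4 (chr9:54699458-54699487, match at -90): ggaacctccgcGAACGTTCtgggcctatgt
Bag3 (chr7:128523614-128523632, match at 42): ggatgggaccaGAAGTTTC
Hspb8 (chr5:116422844-116422873, match at 2): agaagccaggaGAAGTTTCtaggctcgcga

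Expression was given as FPKM, the fragments of a transcript scaled to its length in kilobases and to the depth of the library, as estimated by the authors. The paper states that upper-quartile normalization was used for this, to exclude reads of highly expressed genes. The total FPKM of the DRG libraries was 1.88 times that of the CGN libraries on average. An FPKM of 0 can be a failed estimate and is given as listed at 0. Sensory neuron markers summed to 425370 to 599352 FPKM in DRG cultures and 1944 to 2005 FPKM in CGN cultures, with all 9 tested higher and Trpv1, Scn10a and Isl1 listed at 0 in both CGN libraries. Granule neuron markers summed to 1286 to 1595 FPKM in DRG cultures, where Pax6, Barhl1, Gabra6 and Cbln3 were listed at 0, and 150646 to 228064 FPKM in CGN cultures, with all 8 tested lower. Schwann and satellite glia markers reached 89333 to 140286 FPKM in DRG cultures and 22511 to 31408 FPKM in CGN cultures, with Dhh listed at 0 in CGN cultures and, of 9 tested, 6 higher and 1 lower. Fibroblast markers reached 44616 to 92245 FPKM in DRG cultures and 2149.6 to 5350.4 FPKM in CGN cultures, with 6 of 8 higher. Astrocyte markers (953 to 1432 FPKM in DRG cultures, 16705 to 24289 FPKM in CGN cultures) and macrophage markers (308 to 1312 FPKM in DRG cultures, 5208 to 8624.5 FPKM in CGN cultures) lay the other way, with 5 of 6 and 5 of 5 tested lower. The part of these other cells in the chaperone results was not tested. By the paper's counts of tubulin-positive cells against nuclei, part of the cells in its DRG cultures were not neurons.

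Most chaperone genes had more FPKM in DRG cultures. Of the 61 that reached 50 FPKM in at least 2 libraries, 26 were higher and 3 were lower at a Benjamini-Hochberg adjusted p under 0.05, by limma on log2(FPKM + 50). Among all 13275 genes tested, 28.4% were higher and 9.22% were lower, against 42.6% and 4.92% of the chaperone genes. The median log2 fold change, DRG over CGN, was 1.12 for the chaperone genes and 0.59 for all genes, and 47 of the 61 lay above the median of all genes. Every DRG library was above every CGN library for 40 of the 61 genes, or 65.6%, which held for 43.5% of all genes. The 4 members that were not tested, Dnajc17, Dnajc19, Hspa9-ps1 and Hspb9, reached 50 FPKM in at most 1 library. Fold changes are on the scale of FPKM + 50, which understates those of genes with low values.

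The split of higher and lower calls depended on the scaling of the libraries. Median ratio scaling divides each library by the median of its ratios to the mean of the 5 libraries, taken on the log scale. With it, which moved the median of all genes to -0.04, 23 chaperone genes were higher and 7 lower, where 21.4% and 20.9% of all genes were. Quantile normalization gave 20 higher and 7 lower (22.2% and 21.2% of all genes) with the median of all genes at 0.01, and equal total FPKM gave 19 higher and 8 lower (17.2% and 26.1% of all genes) with that median at -0.26. Every DRG library was below every CGN library for 4 genes, against 16.8% of all genes. The same direction under all 4 scalings was found for 17 higher and 3 lower chaperone genes, with 17.0% and 9.11% of all genes so called. CGN library 2 exceeded CGN library 1 in each of the 49 chaperone genes at 50 FPKM or more in every library, by a median of 1.68 times, and by 1.68 times over all such genes. Without CGN library 2, 41 chaperone genes were higher and 1 lower, with 35.8% and 2.83% of all genes so called. Without CGN library 1, 18 were higher and 1 lower, with 17.5% and 5.0% of all genes. The lower calls were also down to 1 without DRG library 1 or DRG library 3, where 9.93% and 10.3% of all genes were lower.

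By class, the counts stand beside the 28.4% of all genes that were higher and the 9.22% that were lower. In the Hsp70, Hsp40 B, CCT and Hsf classes 33.3% of the tested genes were higher, near the share of all genes. The share was 25% of the small heat shock proteins, 37.5% of Hsp40 C and 40% of Bag genes. It was 66.7% of Hsp90, 75% of Hsp40 A and 100% of Hsp110 genes, in classes of 3 or 4 genes.

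**Figure D1:**
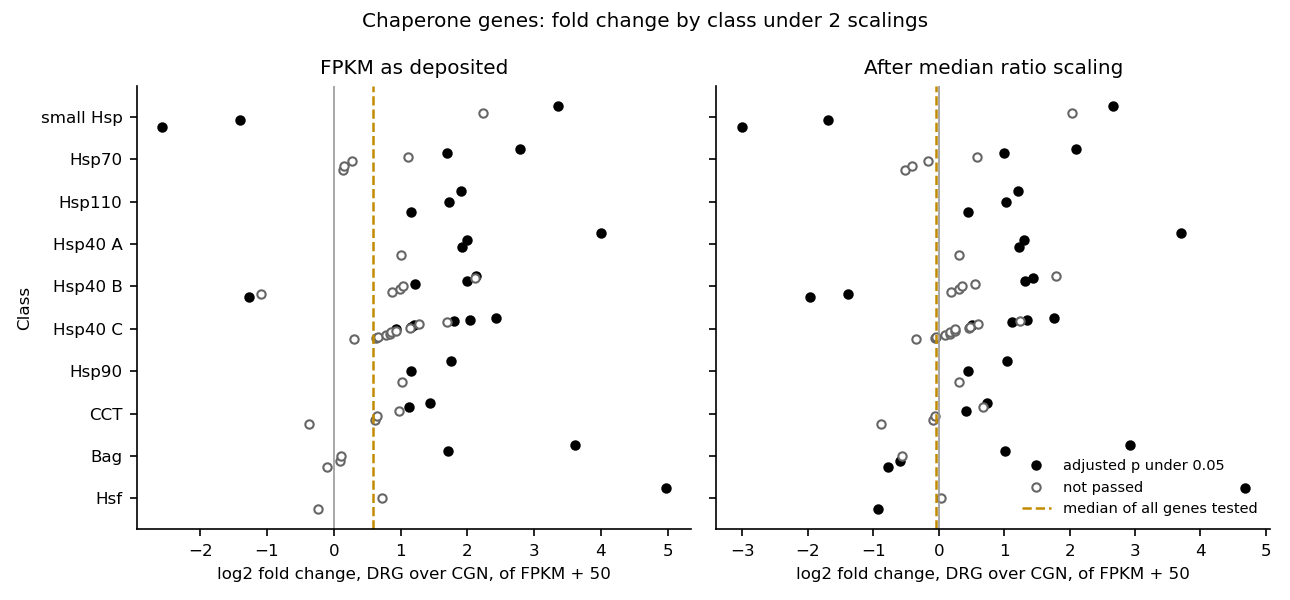
Log2 fold change (DRG over CGN, of FPKM + 50) of tested chaperone genes by class (the mitochondrial chaperonin is not drawn), with FPKM as deposited on the left and after median ratio scaling on the right. Filled points passed the test, open points did not, and the dashed line is the median of all genes tested, at 0.59 on the left and -0.04 on the right: most points of the Hsp110 and Hsp40 A classes lie to its right in both panels. The rightmost point is Hsf4, listed at 0 in CGN cultures, whose position depends on the pseudocount.

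The small heat shock proteins of the set, 5 Hspb genes without Hspb1, went in opposite directions. Cryab, of the same family but outside the set, is described among the other folding genes. Hspb8, which works with Bag3 in selective autophagy of misfolded proteins, had 34395, 33045 and 26872 FPKM in DRG cultures, against 2387 and 3740.4 FPKM in CGN cultures. The 2 sets did not overlap, and the difference was a log2 fold change of 3.36 ± 0.35 (SE, adjusted p = 0.00015). The gene lies at chr5:116858500-116872885 (mm9) on the minus strand. Each library's value was precise by the authors' 95% intervals, which in CGN library 1 ran between 2289 and 2485 FPKM. Hspb8 made up 97.7 to 99.5% of the FPKM of the 5 Hspb genes in DRG cultures and 78.4 and 87.7% in CGN cultures (exact two-sided permutation p = 0.1, the smallest that 10 splits of 5 libraries allow). With Cryab counted in, its share was 35.2 to 50.1% in DRG cultures and 37.8 and 31.3% in CGN cultures, which overlapped (exact permutation p = 0.3).

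Hspb6 and Hspb3, members of the family known mainly from muscle, were lower in DRG cultures. Hspb6 had 0.59, 169.9 and 0.83 FPKM in DRG cultures, against 571 and 338 FPKM in CGN cultures (log2 fold change -2.57 ± 0.76 SE, adjusted p = 0.026). DRG library 2 alone was above 1 FPKM among the DRG libraries. The call was lost without CGN library 1 (adjusted p = 0.24) or CGN library 2 (adjusted p = 0.10), and with a pseudocount of 10 or 1 (adjusted p = 0.050 and 0.085). Hspb3 was listed at 0 in all 3 DRG libraries and had 87.1 and 79.1 FPKM in CGN cultures, with lower 95% bounds of 55.7 and 34.8 FPKM. Its adjusted p of 0.047 was lost when any one DRG library was left out (adjusted p = 0.055 to 0.059). Hspb2 had 802, 0 and 252 FPKM in DRG cultures and was listed at 0 in both CGN libraries (adjusted p = 0.11), and Hspb9 was above 0 in CGN library 2 alone, at 109.6 FPKM, and was not tested.

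In the Hsp70 class 2 of 6 tested genes were higher and none lower, near the 28.4% and 9.22% of all genes. Hspa12a, a distant Hsp70 relative found mostly in brain, had 10135, 8186 and 10848 FPKM in DRG cultures and 1215 and 1517 FPKM in CGN cultures (log2 fold change 2.79 ± 0.32 SE, adjusted p = 0.00027). Hspa5, the Hsp70 of the ER, had 47040.3, 41675 and 34069 FPKM in DRG cultures and 9960.2 and 15647 FPKM in CGN cultures (log2 fold change 1.70 ± 0.39 SE, adjusted p = 0.0083). Both sets of libraries were apart in either gene, and both calls stayed under all 4 scalings. Hspa12a made up 14.8 to 22.2% of the FPKM of the class in DRG libraries and 8.71 and 6.89% in CGN libraries (exact permutation p = 0.1). Hspa5 made up 69.9 to 76.3% in DRG libraries and 71.4 and 71.1% in CGN libraries (exact permutation p = 0.4). No row was named Hspa1a, Hspa1b or Hspa9, so the class total is mostly that of Hspa5. The other 4 did not pass: Hspa1l and Hspa2, Hsp70 genes known from testis, the ribosome-associated Hspa14, and Hspa8. Hspa14 had 3274, 3864 and 3178 FPKM in DRG cultures and 2021 and 3914 FPKM in CGN cultures, and was lower with equal total FPKM alone (log2 fold change -0.66, adjusted p = 0.044). Hspa8, the constitutive cytosolic Hsp70, is represented by a single assembled isoform in a locus with 21.8% of its annotated exon bases. It had 1.42e-05 to 236 FPKM in DRG cultures and 37.0 and 81.3 FPKM in CGN cultures, and that row is no measure of the whole gene. Shares of exon bases, here and below, are those inside the listed locus, and the row itself can cover less.

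All 3 genes of the Hsp110 class, nucleotide exchange factors of Hsp70, were higher. Hsp110 (Hsph1) had 15003, 13658 and 11368 FPKM in DRG cultures, against 3152 and 5047 FPKM in CGN cultures (log2 fold change 1.72 ± 0.34 SE, adjusted p = 0.0043). Hspa4l had 6119, 6949.7 and 6762 FPKM in DRG cultures, against 1362 and 2185 FPKM in CGN cultures (log2 fold change 1.90 ± 0.34 SE, adjusted p = 0.0025), on a row with 53.6% of its exon bases. These 2 calls stayed under all 4 scalings. Hspa4 had 16192, 13398 and 12868 FPKM in DRG cultures, against 4693 and 8507 FPKM in CGN cultures (log2 fold change 1.15 ± 0.36 SE, adjusted p = 0.032). The call of Hspa4 was lost after quantile normalization and equal total FPKM (adjusted p = 0.19 in each) and without any one library but CGN library 2 (adjusted p = 0.064 to 0.11).

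**Figure D2:**
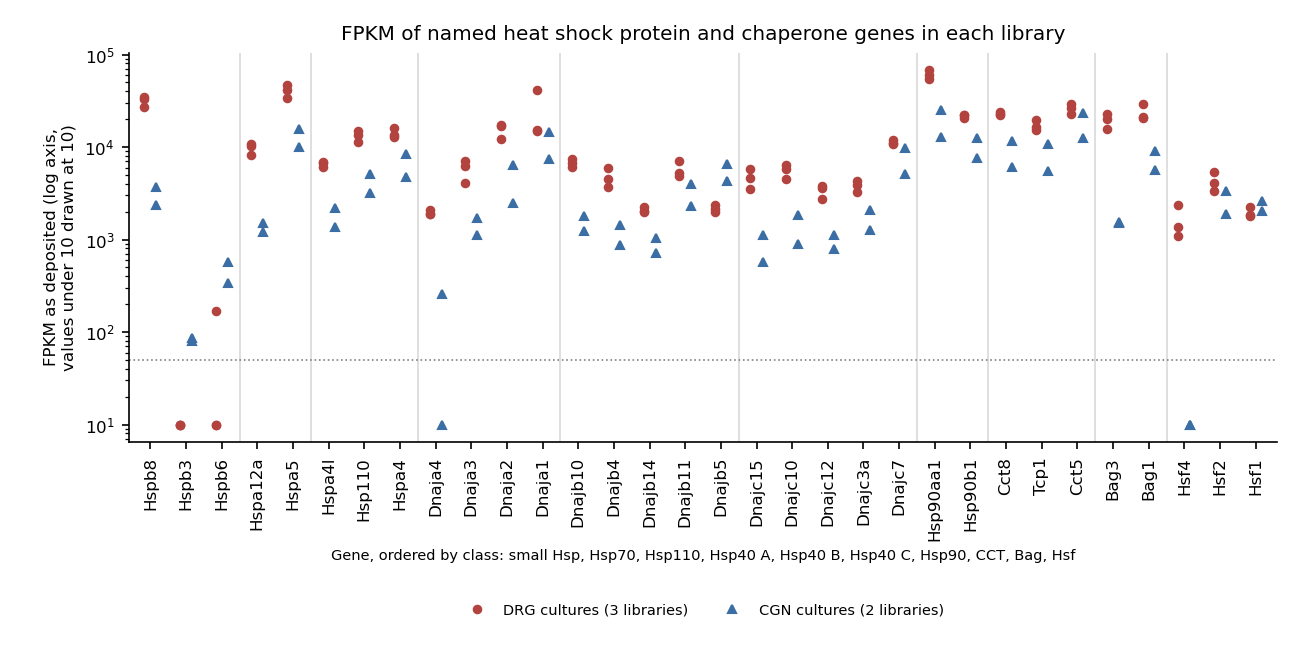
FPKM as deposited (log axis, values under 10 drawn at 10) of named chaperone genes in each library (the mitochondrial chaperonin is not drawn), with DRG libraries as circles left of CGN libraries as triangles, ordered by class. Grey lines part the classes and the dotted line marks 50 FPKM: Hspb8, Bag3, Hspa12a, Dnaja4 and Hsf4 show wide gaps with DRG cultures on top, and Dnajb5, Hspb6 and Hspb3 lie lower in DRG cultures.

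J-domain proteins formed the largest class, with 12 of 29 tested genes higher and 1 lower. That was 41.4% and 3.45%, beside 28.4% and 9.22% of all genes. In the A type, which resembles bacterial DnaJ, 3 of 4 were higher under all 4 scalings, where 17.0% of all genes were. Dnaja4 had 1907, 1871 and 2080.4 FPKM in DRG cultures, against 0.0875 and 259 FPKM in CGN cultures (log2 fold change 4.01 ± 0.74 SE, adjusted p = 0.0029). Dnaja3, the mitochondrial member, had 6276, 7009.8 and 4116 FPKM in DRG cultures, against 1118 and 1723 FPKM in CGN cultures (log2 fold change 1.99 ± 0.38 SE, adjusted p = 0.0035). Dnaja2, a cytosolic partner of Hsp70, had 17398, 16712 and 12135 FPKM in DRG cultures, against 2493 and 6385 FPKM in CGN cultures (log2 fold change 1.92 ± 0.43 SE, adjusted p = 0.0076). Every DRG library was above both CGN libraries in each of the 3 genes, and the CGN libraries of Dnaja4 differed most. Dnaja1, with the highest mean FPKM of the type over the 5 libraries, had 15261, 41248 and 14909 FPKM in DRG cultures and 7424 and 14649 FPKM in CGN cultures and did not pass (adjusted p = 0.15). DRG library 2 stood far above the rest there, and the Dnaja1 rows cover 37.9% of its exon bases.

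In the B type, which lacks the zinc finger of the A type, 3 of 9 genes were higher and 1 lower, near the 28.4% and 9.22% of all genes. Dnajb10 (Dnajb2), a neuron-enriched member linked to hereditary motor neuropathy in humans, had 7374, 6127 and 6763 FPKM in DRG cultures, against 1239 and 1817 FPKM in CGN cultures (log2 fold change 2.13 ± 0.33 SE, adjusted p = 0.0013). Dnajb4, a cytosolic relative of Dnajb1 with 66.1% of its exon bases in the table, had 4543, 5866 and 3710.0 FPKM in DRG cultures, against 864 and 1449.5 FPKM in CGN cultures (log2 fold change 2.0 ± 0.38 SE, adjusted p = 0.0036). Both held under all 4 scalings. Dnajb14, of the ER membrane and with 40.1% of its exon bases, was called as deposited (log2 fold change 1.22 ± 0.39 SE, adjusted p = 0.035). Its call was lost with equal total FPKM (log2 fold change 0.30, adjusted p = 0.28) and after median ratio scaling (adjusted p = 0.075). It was also lost without any one library other than CGN library 2 (adjusted p = 0.091 to 0.12). Dnajb5, a brain and heart member, was lower, with 2136, 2335 and 2004 FPKM in DRG cultures and 4302 and 6501 FPKM in CGN cultures (log2 fold change -1.28 ± 0.34 SE, adjusted p = 0.017). Its call was lost without DRG library 1 (adjusted p = 0.052) or DRG library 3 (adjusted p = 0.057), and held under all 4 scalings. Dnajb1, the classical heat-inducible member, had 5484, 4873 and 3567 FPKM in DRG cultures and 1759 and 2920.3 FPKM in CGN cultures and did not pass (adjusted p = 0.059). Dnajb11, an ER member on a row with 59.9% of its exon bases, had the highest mean FPKM of the type over the 5 libraries. Dnajb11 did not pass either (log2 fold change 0.88, adjusted p = 0.085). Its log2 fold change was -0.06 with equal total FPKM and its adjusted p was 0.019 without CGN library 2. Dnajb6, a suppressor of protein aggregation with a 3-unit heat shock element above, had 0, 0 and 44.3 FPKM in DRG cultures and 75.9 and 88.2 FPKM in CGN cultures on a row with 13.6% of its exon bases. It did not pass as deposited (log2 fold change -1.09, adjusted p = 0.14) and was lower after median ratio scaling (-1.39, adjusted p = 0.048).

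The C type, a mixed group that shares little beyond the J domain, had 6 of 16 tested genes higher and none lower (28.4% and 9.22% of all genes). Dnajc15, of the mitochondrial inner membrane, had 4651, 5761 and 3547 FPKM in DRG cultures, against 575 and 1121 FPKM in CGN cultures (log2 fold change 2.43 ± 0.41 SE, adjusted p = 0.0019). Dnajc10, a disulfide reductase of the ER, had 5784, 6350.2 and 4483 FPKM in DRG cultures, against 906 and 1860.2 FPKM in CGN cultures (log2 fold change 2.03 ± 0.39 SE, adjusted p = 0.0038). Dnajc12, which assists aromatic amino acid hydroxylases, had 3795, 3603 and 2752 FPKM in DRG cultures, against 783 and 1106 FPKM in CGN cultures (log2 fold change 1.79 ± 0.37 SE, adjusted p = 0.0052). These 3 were called under all 4 scalings, Dnajc12 no longer with reference isoforms only (adjusted p = 0.19), whereas Dnajc3a, Dnajc18 and Dnajc6 each lost the call under at least 1 of them. Dnajc3a, the ER inhibitor of the kinase PERK that holds an ER stress element above, had 4330.2, 3225 and 3865 FPKM in DRG cultures and 1257 and 2086 FPKM in CGN cultures (log2 fold change 1.2 ± 0.37 SE, adjusted p = 0.029). Without DRG libraries 1, 2 or 3 or CGN library 1 its adjusted p was 0.054 to 0.11.

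Dnajc5, a C type member known as the cysteine string protein of synaptic vesicles, had 9879, 10484 and 9665 FPKM in DRG cultures and 4176 and 7183 FPKM in CGN cultures (log2 fold change 0.86, adjusted p = 0.073). Dnajc6, the neuronal auxilin that uncoats clathrin vesicles, had 6207, 6200.1 and 6053 FPKM in DRG cultures and 2568 and 3969 FPKM in CGN cultures (adjusted p = 0.049), with a log2 fold change of 0.94 as deposited and -0.01 with equal total FPKM. Dnajc7, which binds both Hsp70 and Hsp90 and was the most abundant of the type, did not pass (log2 fold change 0.66, adjusted p = 0.17). The direction of Dnajc7 turned under each other scaling, at -0.04 to -0.31, and its adjusted p was 0.014 without CGN library 2.

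Of the 3 Hsp90 genes 2 were higher and none lower, and none was called after quantile normalization. Hsp90aa1, the inducible cytosolic form and the most abundant gene of the set in both cultures, had 54260.2, 59541 and 67199 FPKM in DRG cultures, against 12816 and 24826 FPKM in CGN cultures (log2 fold change 1.75 ± 0.43 SE, adjusted p = 0.012). Its row holds 10.7% of the annotated exon bases, and the call was lost after quantile normalization (adjusted p = 0.12) and without CGN library 1 (adjusted p = 0.0505). Hsp90ab1, the constitutive form, had 33999, 27229.5 and 30277 FPKM in DRG cultures and 11076 and 20316 FPKM in CGN cultures and did not pass (log2 fold change 1.02, adjusted p = 0.067). Hsp90b1, the ER form with 2 ER stress elements above, had 22470.3, 22207 and 20724 FPKM in DRG cultures and 7578 and 12601 FPKM in CGN cultures (log2 fold change 1.15 ± 0.35 SE, adjusted p = 0.030). The Hsp90b1 call was lost after quantile normalization and equal total FPKM (adjusted p = 0.67 and 0.23) and without any one library but CGN library 2 (adjusted p = 0.081 to 0.099). Hsp90aa1 made up 61.5, 68.6 and 68.9% of the FPKM of the cytosolic pair in DRG cultures and 53.6 and 55.0% in CGN cultures (exact permutation p = 0.2).

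Of the 6 subunits of the CCT chaperonin in the table, which act in one complex, 4 were abundant and close to each other in level. These 4, Cct2, Cct5, Cct8 and Tcp1, spanned 1.5 to 1.6 times from lowest to highest in DRG libraries and 2.23 and 2.16 times in CGN libraries, with Tcp1 lowest and Cct5 highest in each of the 5. The direction of the class depended on the scaling: its 6 genes had a median log2 fold change of 0.81 as deposited, 0.18 after median ratio scaling, -0.07 with equal total FPKM and -0.18 after quantile normalization. Cct8 had 22726, 23718 and 22416 FPKM in DRG cultures, against 6111 and 11699.7 FPKM in CGN cultures (log2 fold change 1.43 ± 0.37 SE, adjusted p = 0.015). Tcp1 had 19376, 16609.8 and 15136 FPKM in DRG cultures, against 5559 and 10847 FPKM in CGN cultures (log2 fold change 1.12 ± 0.38 SE, adjusted p = 0.042). Neither was called after quantile normalization (adjusted p = 0.0915 for Cct8 and 0.53 for Tcp1), and leaving out any one library but CGN library 2 took Tcp1 to an adjusted p of 0.073 to 0.15. Cct5 overlapped between the cultures, with 29069, 26573 and 22836 FPKM in DRG cultures and 12374 and 23457 FPKM in CGN cultures. Its log2 fold change of 0.61 did not pass (adjusted p = 0.25), turned to -0.59 after quantile normalization (adjusted p = 0.018) and passed as deposited without CGN library 2 (1.07, adjusted p = 0.032). Cct2 overlapped as well. Cct4 and Cct7 were far lower and did not pass: Cct4 had 725, 140.2 and 64.3 FPKM in DRG cultures and 5.5 and 257.6 FPKM in CGN cultures, on a row with 35.5% of its exon bases. Cct7 had 0.000107, 418 and 823 FPKM in DRG cultures and 281 and 329 FPKM in CGN cultures. Its listed locus spans 99.3% of its exon bases and also holds another gene. That share does not show how much of Cct7 the row itself covers.

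Of the mitochondrial chaperonin, Hspd1 (Hsp60) had 5836, 7766 and 4449 FPKM in DRG cultures and 3318 and 4990.0 FPKM in CGN cultures, which overlapped (log2 fold change 0.52, adjusted p = 0.29).

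Bag3, the Hspb8 partner and one of the heat-inducible Bag genes, had one of the largest differences of the set. It had 22489, 15698 and 20114 FPKM in DRG cultures, against 1499.8 and 1562 FPKM in CGN cultures (log2 fold change 3.61 ± 0.32 SE, adjusted p = 7.0e-05), and lies at chr7:135667126-135690497 (mm9) on the plus strand. Bag1, which links Hsp70 to the proteasome, had 29409, 21338 and 20840.5 FPKM in DRG cultures, against 5701 and 9013 FPKM in CGN cultures (log2 fold change 1.71 ± 0.36 SE, adjusted p = 0.0060). Both were called under all 4 scalings and without any one library. Bag3 made up 42.4 to 49.1% of the FPKM of this pair in DRG cultures and 20.8 and 14.8% in CGN cultures (exact permutation p = 0.1). Bag2, Bag4 and Bag5 overlapped between the cultures and did not pass, with log2 fold changes of -0.10, 0.11 and 0.09. The median of the 5 Bag genes was 0.11 as deposited and -0.56 by median ratio scaling. With that scaling Bag2 and Bag5 were lower, at -0.78 and -0.60 (adjusted p = 0.046 and 0.017).

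Heat shock factors differed from one another. Hsf4, known from lens development, had 1368, 2370.5 and 1079 FPKM in DRG cultures and was listed at 0 in both CGN libraries (adjusted p = 0.00031, past the threshold in all 17 alternatives). No fold is given against values listed at 0. Hsf4 was split over 7 isoforms, and in DRG libraries 1 and 3 the lower 95% bound of each was 0, apart from TCONS_01204871 in DRG library 1 (36.7 FPKM). Hsf1, the main activator of the heat shock response, had 1857, 2249.7 and 1779 FPKM in DRG cultures and 2037 and 2632 FPKM in CGN cultures, which overlapped (log2 fold change -0.24 ± 0.36 SE, adjusted p = 0.62). Relative to the other genes Hsf1 was lower, with log2 fold changes of -0.88 after quantile normalization, -1.17 under equal total FPKM and -0.93 by median ratio scaling (adjusted p = 0.019, 0.012 and 0.017). Hsf2 had 4048, 5374 and 3354 FPKM in DRG cultures and 1897 and 3349.7 FPKM in CGN cultures (log2 fold change 0.72, adjusted p = 0.17), on 70.7% of its exon bases. It was at -0.22 with equal total FPKM and passed as deposited without CGN library 2 (adjusted p = 0.040). Of the 10 genes with a GAANNTTC in a promoter window, 4 were higher, 2 (Hspb3 and Hspb6) lower and 4 did not pass. Of all genes 28.4% were higher and 9.22% lower, and of the chaperone genes tested 42.6% and 4.92%.

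As a share of all FPKM, which the library total does not affect, the 65 genes took 0.904, 1.09 and 0.921% in DRG libraries and 0.716 and 0.769% in CGN libraries (exact permutation p = 0.1). The class shares of the Hspb genes, Hsp70, Hsp110 and Bag were apart between the cultures (exact permutation p = 0.1 in each). Those of Hsp90 and Hsp40 A were apart as well (exact permutation p = 0.2 and 0.4). For Hsp40 A the gap was narrow, with a lowest DRG share of 0.0618% and a highest CGN share of 0.0617%. The share of Hsp70 is mostly that of Hspa5, the ER member. The 5 Hspb genes took 0.0504 to 0.0640% in DRG libraries and 0.0136 and 0.0114% in CGN libraries. With Cryab they took 0.0996 to 0.156% in DRG libraries and 0.0281 and 0.0321% in CGN libraries (exact permutation p = 0.1). Hsp90 genes took 0.176 to 0.220% in DRG libraries and 0.140 and 0.155% in CGN libraries (exact permutation p = 0.2), and CCT genes overlapped, at 0.146 to 0.17% in DRG libraries and 0.15 and 0.174% in CGN libraries. These shares weight abundant genes most, and rows of partial genes enter as they stand.

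**Figure D3:**
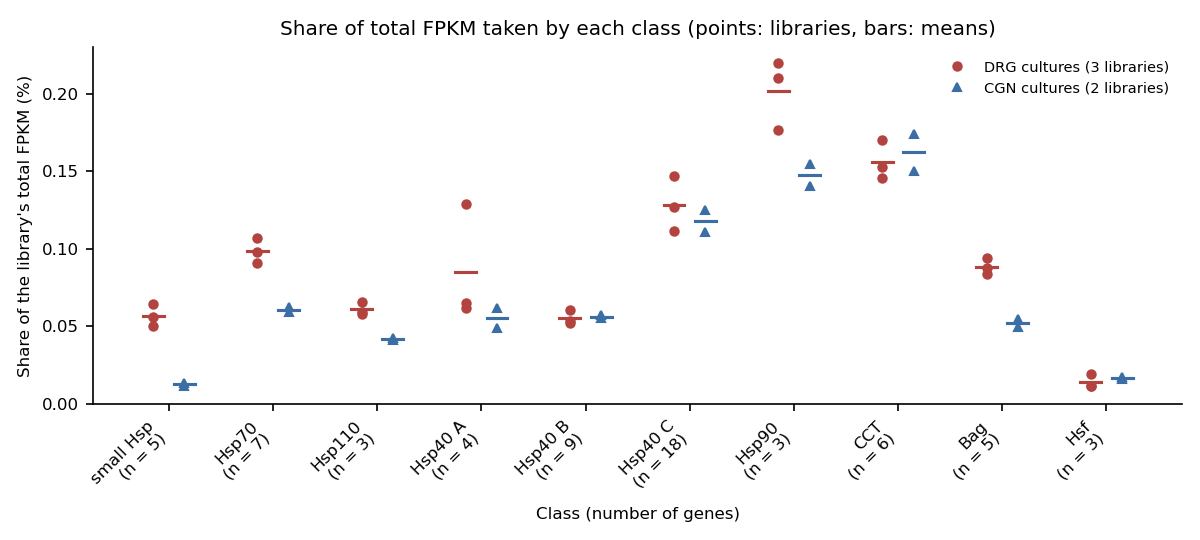
Share of each library's total FPKM (%) taken by each class of chaperone genes but the mitochondrial chaperonin, with DRG libraries as circles left of CGN libraries as triangles and bars at the means. The shares of small Hsp (the 5 Hspb genes), Hsp70, Hsp110, Hsp90 and Bag lie higher in every DRG library than in either CGN library. Those of Hsp40 A do so by a narrow gap, while those of CCT overlap.

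At the level of isoforms, 144 of the 180 were tested, of which 28 were higher and 4 lower, where 9.63% and 5.04% of all 33587 isoforms tested were. Quantile normalization gave 27 higher and 8 lower (9.03% and 9.62% of all isoforms), equal total FPKM 19 and 10 (7.51% and 11.9%), and median ratio scaling 26 and 8 (8.79% and 10.1%). An isoform is called here by its reference ID, with TCONS for those assembled by the authors. Leaving out DRG library 1, 2 or 3 or CGN library 1 left 2, 5, 6 and 10 chaperone isoforms higher, where 1.93%, 3.71%, 3.22% and 6.28% of all isoforms were. No chaperone isoform was lower by limma without any one library, although 1 to 8 were at an unadjusted p under 0.05. Of all isoforms 0.76%, 1.36% and 1.32% were lower without DRG library 1, 2 or 3, and 0.693% and 0.502% without CGN library 1 or 2. Among 30 genes with several isoforms and 50 FPKM or more in every library, the most abundant isoform differed between DRG libraries in 8 and between CGN libraries in 3.

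Of these, Dnajb4 was the 1 gene whose most abundant isoform differed between the cultures with every library on its own side. Its isoform uc008rsq.1 had 2946, 3309 and 2161 FPKM in DRG cultures, against 3.40 and 164 FPKM in CGN cultures (log2 fold change 4.72, adjusted p = 0.012). That was 64.9, 56.4 and 58.2% of Dnajb4 in DRG libraries and 0.394 and 11.3% in CGN libraries, while TCONS_00433145 made up 21.4, 37.5 and 26.1% in DRG libraries and 64.7 and 79.99% in CGN libraries (exact permutation p = 0.1 for each). TCONS_00433145 itself, with 972, 2198 and 968 FPKM in DRG cultures and 559 and 1160 FPKM in CGN cultures, did not pass (log2 fold change 0.63, adjusted p = 0.50).

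Hspa12a, with 10 isoforms the most of the set, and Dnajb10 and Dnajb5 were compared in make-up as well. Hspa12a uc008iaw.1 had 6264, 2288 and 7960 FPKM in DRG cultures, against 107.8 and 107.4 FPKM in CGN cultures (log2 fold change 4.96, adjusted p = 0.0077), or 61.8, 27.95 and 73.4% of the gene in DRG libraries and 8.87 and 7.08% in CGN libraries (exact permutation p = 0.2). Hspa12a TCONS_02573149 was lower, at 31.4 FPKM or less in DRG cultures and 409 and 431 FPKM in CGN cultures (adjusted p = 0.033). Dnajb10 uc007boo.1 made up 74.5 to 78.2% of its gene in DRG libraries and 24.4 and 52.9% in CGN libraries (exact permutation p = 0.1). Dnajb5 uc008soo.1 was lower as its gene was, with 320.1, 262 and 99.5 FPKM in DRG cultures and 1731 and 2138 FPKM in CGN cultures (log2 fold change -2.93, adjusted p = 0.027), or 4.97 to 15.0% of the gene in DRG libraries and 40.2 and 32.9% in CGN libraries (exact permutation p = 0.1). Hsp90ab1, in contrast, came from 1 assembled isoform in every library, at 91.2 to 98.2% in DRG libraries and 90.4 and 93.4% in CGN libraries.

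**Figure D4:**
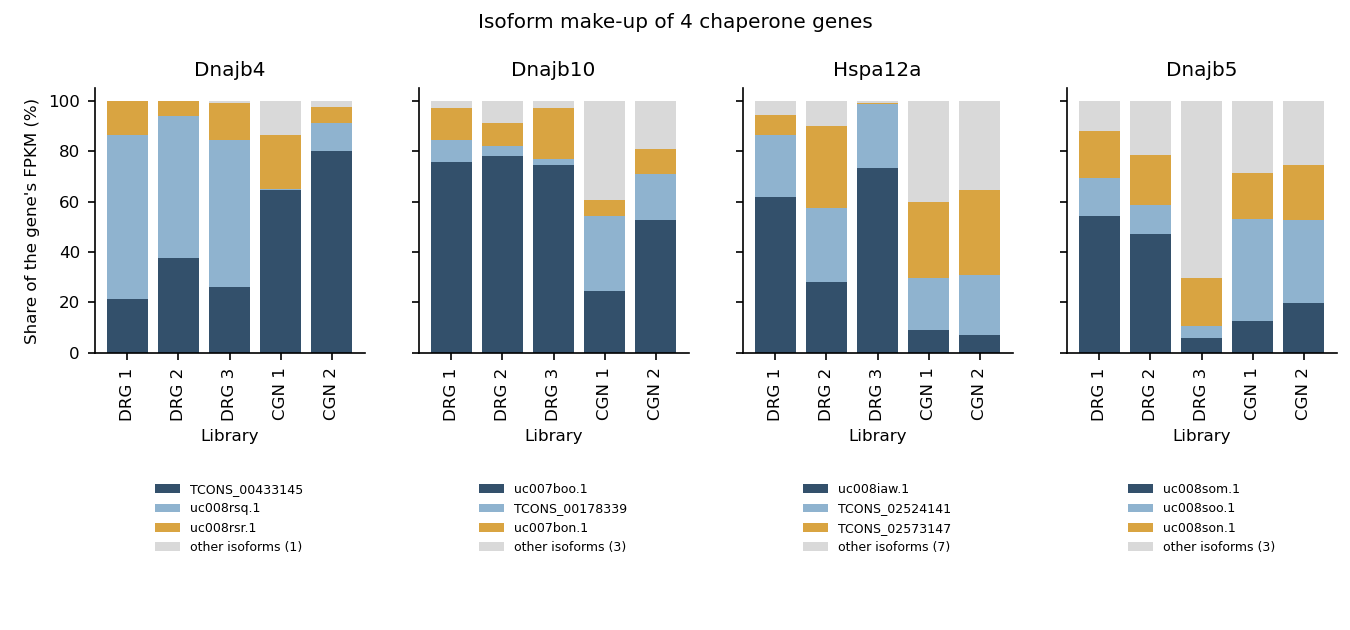
Make-up of Dnajb4, Dnajb10, Hspa12a and Dnajb5 in each library as the share of the gene's FPKM (%) of its 3 most abundant isoforms and of all others, with the 3 DRG libraries left of the 2 CGN libraries. The uc008rsq.1 share of Dnajb4 is 56.4% or more in DRG libraries and 11.3% or less in CGN libraries, while Dnajb5 varies among the DRG libraries.

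Other genes of protein folding, in 6 lists chosen by name, were also counted: of 64 tested, 36 were higher and 1 lower, with a median log2 fold change of 1.19. Among all genes 28.4% were higher and 9.22% lower, with a median of 0.59. After median ratio scaling 26 were higher and 4 lower (21.4% and 20.9% of all genes), and 19 were higher as deposited without CGN library 1 (17.5% of all genes). Of 17 Hsp70 and Hsp90 cochaperones 9 were higher and none lower, led by Tomm70a, a mitochondrial import receptor that docks chaperones (10028, 11778 and 9691 FPKM in DRG cultures, 2076 and 3953 FPKM in CGN cultures) at a log2 fold change of 1.85. Fkbp8, an immunophilin of the mitochondrial outer membrane, was higher by 1.62 on the log2 scale. Among prefoldin subunits and tubulin cofactors, which feed CCT and assemble tubulin dimers, 7 of 11 were higher and none lower, led by Tbcd at 2.38, Tbcb at 1.70 and Pfdn1 at 1.49. Of 10 mitochondrial cofactors and proteases 5 were higher and none lower, led by the protease Lonp1 at 1.73, Grpel1, the exchange factor of mitochondrial Hsp70, at 1.61 and Trap1, the mitochondrial Hsp90, at 1.43. The Lonp1 call was lost with equal total FPKM (log2 fold change 0.80). Cryab, an alpha-crystallin of the small heat shock protein family, had 62497, 35203 and 26464 FPKM in DRG cultures, against 3273 and 7697 FPKM in CGN cultures (log2 fold change 2.94 ± 0.49 SE, adjusted p = 0.0018).

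In the ER, 11 of 16 lectin chaperones and disulfide isomerases were higher and none lower, and 5 were higher and 2 lower after median ratio scaling. Ero1l, the oxidase that drives disulfide formation, had 7229, 7645 and 4225 FPKM in DRG cultures, against 407 and 709.8 FPKM in CGN cultures (log2 fold change 3.40 ± 0.41 SE, adjusted p = 0.00034). Pdia5 and Sil1, at 2.63 and 2.52, were called as deposited but under none of the other 3 scalings. Among 9 regulators of the unfolded protein response, 3 were higher and 1 lower, near the 28.4% and 9.22% of all genes. Ddit3 (CHOP), a transcription factor induced by prolonged ER stress, had 20928, 51851 and 10549.5 FPKM in DRG cultures, against 903 and 1228 FPKM in CGN cultures (log2 fold change 4.36 ± 0.57 SE, adjusted p = 0.00051). Trib3, a target of Ddit3, and Xbp1, a transcription factor of the response, were higher by 2.11 and 1.39 on the log2 scale. The Xbp1 call was lost with equal total FPKM (log2 fold change 0.44). Ern1 (IRE1), the sensor that splices Xbp1 mRNA, had 0.88, 49.3 and 9.4e-17 FPKM in DRG cultures and 85.9 and 626 FPKM in CGN cultures (log2 fold change -2.26 ± 0.75 SE, adjusted p = 0.040), and its call was lost without either CGN library. The other regulators, among them Atf4 and Herpud1, did not pass.

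**Figure D5:**
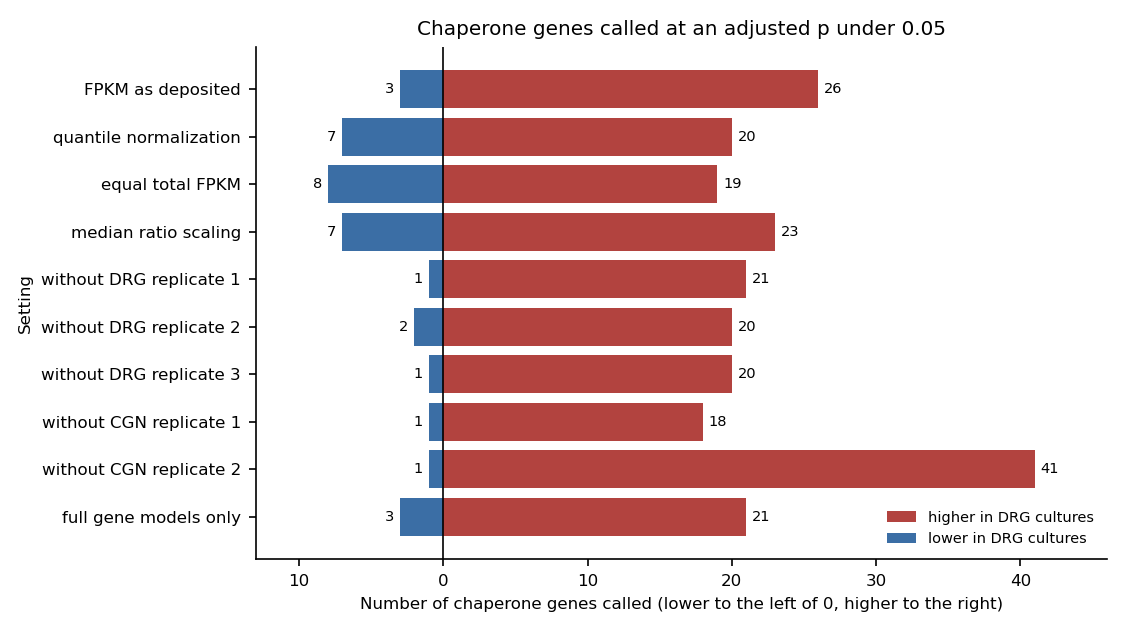
Number of chaperone genes called higher (right of 0) and lower (left of 0) in DRG cultures at an adjusted p under 0.05, by setting. The deposited FPKM gave 26 and 3, the other scalings 19 to 23 and 7 to 8, and leaving out CGN replicate 2 gave 41 and 1.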

How the data were processed

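The authors aligned reads with TopHat to mm9, assembled transcripts with Cufflinks, and estimated FPKM and its 95% bounds for each isoform and library with Cuffdiff and upper-quartile normalization. These deposited FPKM were used. The deposited table also holds 6 columns for grouped libraries, and the authors' own tests, which were not used. FPKM are no counts, and the number of reads behind a value cannot be read from them.

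Isoforms were summed to genes by symbol. Features with FPKM of at least 50 in at least 2 libraries were tested on log2(FPKM + 50) with limma 3.58.1 (eBayes with trend) in R 4.3.3, adjusted over all features. The steps were tested on simulated data. Rows were placed on GENCODE M1 by their listed loci. The loci of 50 genes, called full gene models here, spanned at least 80% of exon bases and those of 13 less, and 2 members were retrocopies or pseudogenes. A locus can be wider than the isoforms in it and can hold other genes. Genes were named if among the 4 largest called changes per class and direction, the most abundant of a class, an Hsf gene, or listed at 0 throughout one culture and at 50 FPKM or more throughout the other, and lists gave up to 3 per direction. Some items that these rules select are not reported here. Other members were named after their values were seen. The members and lists were chosen with earlier results of these data known. Alternatives were other pseudocounts (10, 1), filters, scalings, limma settings, isoform choices, a replicate block and each library left out. Restriction to full gene models, the count over all 4 scalings, shares with each library left out and Hspb shares with Cryab were added after seeing the data. Figures used Python 3.11.15, pandas 2.3.3, numpy 2.4.6 and matplotlib 3.10.9.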

Additional observations from a re-analysis of the deposited data

How the results depend on the processing

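Chaperone genes kept their main pattern, more higher than lower calls, in each setting run, but the counts moved. Against 26 higher and 3 lower, the lower calls numbered 7 after quantile normalization, 8 under equal total FPKM and 7 by median ratio scaling. Of all genes 21.2%, 26.1% and 20.9% were lower in the same order. With reference isoforms only 1 was lower, where 668 of all 9908 genes were. The higher calls numbered 17 where all 4 scalings were required, which 17.0% of all genes met. Among the 49 full gene models tested 21 were higher and 3 lower, where 28.4% and 9.22% of all genes were. Leaving out 1 library gave 18 to 41 higher and 1 to 2 lower. For isoforms, against 28 higher and 4 lower, no filter gave 10 higher and eBayes without trend gave 14 higher. Of all isoforms 2069 of 48510 were higher with no filter and 2599 of 33587 without trend. Lower calls numbered 8 after quantile normalization, 10 under equal total FPKM and 8 by median ratio scaling, where 9.62%, 11.9% and 10.1% of all isoforms were lower. Leaving out 1 library gave 2 to 32 higher and 0 to 0 lower by limma, with 1 to 8 lower at an unadjusted p under 0.05. For the folding lists, against 36 higher and 1 lower, equal total FPKM gave 20 higher and 5 lower, where 17.2% and 26.1% of all genes were. Quantile normalization gave 3 lower and median ratio scaling 4 lower (21.2% and 20.9% of all genes). A pseudocount of 1, no filter and a 100 FPKM filter gave 0 lower by limma, with 1, 1 and 0 at an unadjusted p under 0.05. In these settings 953 of 13275, 1139 of 14200 and 1186 of 12698 genes were lower. Leaving out 1 library gave 19 to 42 higher and 0 to 1 lower. The cause of these moves was not tested.

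Of all genes tested, 66.3% had a log2 fold change above 0 as deposited. That share was 50.3% after quantile normalization, 42.2% with equal total FPKM and 48.9% by median ratio scaling. How many of all genes turned was not counted, so the count of chaperone genes that turned has no share beside it. The direction turned under at least 1 other scaling for 19 of the 61 chaperone genes tested, of which Dnajc6 alone was called as deposited. They were Bag4, Bag5, Cct2, Dnajc5, Dnajc6, Dnajc11, Dnajc13, Dnajc14, Dnajc16, Hsp90ab1, Hspa2, Hspa8, Hspa14, Hspd1 and, with values, Cct5 (-0.59 after quantile normalization, -0.34 with equal total FPKM, -0.088 by median ratio scaling), Dnajc7 (-0.31, -0.29 and -0.036 in the same order), Dnaja1 (-0.076 after quantile normalization), Dnajb11 (-0.064 with equal total FPKM) and Hsf2 (-0.22 with equal total FPKM). Hsf1 turned with reference isoforms only (1.79). DRG and CGN libraries share replicate numbers that no label ties to a shared mouse or day, and same-numbered libraries did not deviate together (r = -0.02 and 0.01). A replicate block gave 16 higher and 1 lower chaperone genes, where 2444 and 1031 of all 13275 genes were. For isoforms it gave 21 higher and 3 lower, where 3319 and 1834 of all 33587 isoforms were. With 5 libraries and no read counts, the precision of low values is limited, and an FPKM listed at 0 does not show absence.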
